A study of Mus musculus with 4 samples.

Results

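Transcripts of 8 genes of the S100 family, small calcium-binding proteins, were followed in mouse liver tumor-initiating stem-like cells. The genes are S100a1, S100a3, S100a4, S100a6, S100a10, S100a11, S100a13 and S100a16, taken by symbol from a table of 23359 genes. They form part of the 17 family genes in that table. The cells came from liver tumors of C57BL/6 mice and were grown in culture. RNA was sequenced from 4 cultures, 1 library each. The first received vehicle. The second received 5 µg/ml of all-trans retinoic acid (ATRA, the natural ligand of the retinoic acid receptors). The third received 0.5 µg/ml of suberoylanilide hydroxamic acid (SAHA, which blocks histone deacetylases), and the fourth received both compounds at these doses, called the combination here. Each treatment lasted 16 hours, with a time for vehicle not given in the sources used here. All 4 cultures shared a medium with serum, mouse EGF and dexamethasone. The labels do not say how many tumors or mice the cells came from, nor whether they are 1 clone.

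S100 proteins carry paired calcium-binding loops of the EF-hand type, mostly act as dimers, and on binding calcium expose a surface that grips partner proteins. Different members bind annexins, non-muscle myosin, ubiquitin ligase adaptors or p53, and some are released from cells and act on surface receptors. In tumors the family is best known for S100a4, whose protein is tied to cell motility and metastasis, and in mouse most of its genes lie side by side on 1 chromosome.

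Levels are given in FPKM, sequenced fragments divided by transcript length and library size, which allows genes of different length to be compared. Differences between libraries are given as log2(FPKM + 1) of 1 library minus that of the other, and a difference of 1 or more in size is called past the 2-fold mark. That scale understates differences of genes near or below 1 FPKM, and folds in words are ratios of the FPKM themselves. With 1 library per group there is no replicate check, so no error, interval or p-value is given for any difference. Counts of genes past the mark are over genes whose mean across the 4 libraries reached 1 FPKM, 8616 in all and 6 of the 8 S100 genes (S100a3 and S100a16 are below it). Each of the 6 was at 1 FPKM or more in every library, so none passed through a single group. By an estimate from the smallest steps in the values, 1 FPKM on a transcript of 1 kilobase stood for 98.6 to 104 fragments per library. The column totals ranged from 258214 to 309001 FPKM. Without the 10 highest genes of each library and small RNAs, the SAHA library held 98815 FPKM and the other 3 held 136765 to 158227. Differences were therefore also computed after scaling the libraries to this remaining total, called rescaling below. It shifts log2 FPKM by 0.47 for SAHA, -0.17 for ATRA and -0.21 for the combination. On the log2(FPKM + 1) scale the shift is smaller, most so for genes near or below 1 FPKM.

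S100a4, also called metastasin, encodes a protein that binds the heavy chain of non-muscle myosin and is used as a marker of fibroblasts. It measured 557 FPKM in the vehicle library, 467 under ATRA, 138 under SAHA and 18.6 under the combination. The ATRA library was close to vehicle, SAHA was clearly lower, and the combination was far below each of the other 3 libraries. Among 8468 counted genes other than small RNAs, S100a4 was the 46th most abundant with vehicle and the 782nd with the combination. The values correspond to about 27373, 23285, 6763 and 963 fragments, in the same order, so the lowest still rested on many fragments. In a bulk culture, fewer cells of a type and less RNA per cell cannot be told apart, here and for every gene that follows.

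S100a6 (calcyclin), whose protein binds the ubiquitin ligase adaptor encoded by Cacybp, lies 6.85 kb beyond S100a4. It measured 318 FPKM in the vehicle library, 259 under ATRA, 119 under SAHA and 39.9 under the combination. The libraries stood in the same order as for S100a4, over a narrower span. S100a11 (calgizzarin), whose protein binds annexin A1, was at 104, 72.2, 68.7 and 19.4 FPKM in the order vehicle, ATRA, SAHA and combination. Before rescaling, ATRA and SAHA alone gave nearly the same level of S100a11, and the combination library alone was low. After it, S100a11 differed from vehicle by -0.69 with ATRA and -0.13 with SAHA.

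The windows upstream of these 3 genes are shown because each was lower with the combination than with either compound alone. Each is the 250 bases before the start of the RefSeq transcript on GRCm38.p6, 5′ to 3′ on the strand of the gene. S100a4 spans chr3:90603520-90603769, S100a6 chr3:90612644-90612893 and S100a11 chr3:93520246-93520495, all on the plus strand. Capitals mark matches on either strand to TATAAA (a core promoter element), GGGCGG (a site of Sp family factors), CCAAT (a site of NF-Y), TGANTCA (a site of AP-1) and AGGTCA (a nuclear receptor half-site).
S100a4: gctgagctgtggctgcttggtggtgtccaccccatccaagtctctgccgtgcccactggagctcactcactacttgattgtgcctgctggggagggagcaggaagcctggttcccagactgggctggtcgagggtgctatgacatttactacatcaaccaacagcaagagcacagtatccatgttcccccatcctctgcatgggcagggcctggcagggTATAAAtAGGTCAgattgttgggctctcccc
S100a6: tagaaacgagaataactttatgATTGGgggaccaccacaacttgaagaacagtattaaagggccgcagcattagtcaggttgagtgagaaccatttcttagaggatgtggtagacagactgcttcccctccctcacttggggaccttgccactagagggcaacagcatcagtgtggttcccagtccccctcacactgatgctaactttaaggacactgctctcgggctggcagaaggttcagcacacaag
S100a11: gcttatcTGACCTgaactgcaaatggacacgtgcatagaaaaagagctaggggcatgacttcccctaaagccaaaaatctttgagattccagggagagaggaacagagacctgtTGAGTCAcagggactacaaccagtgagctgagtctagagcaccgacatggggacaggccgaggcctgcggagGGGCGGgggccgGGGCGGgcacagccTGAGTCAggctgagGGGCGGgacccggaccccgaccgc
The S100a4 window holds TATAAA at -31 to -26 and AGGTCA at -24 to -19, counted back from the transcript start. The S100a6 window holds CCAAT on the reverse strand at -228 to -224. The S100a11 window holds GGGCGG starting at -64, -52 and -24, TGANTCA starting at -136 and -38, and AGGTCA on the reverse strand at -243 to -238. None of the 5 motifs occurs in all 3 windows. AGGTCA also occurs in windows of S100a3 and S100a16, and TATAAA in a window of S100a3. Neither gene was counted, and their windows are not printed. Over 32851 RefSeq promoter windows of the same length, 12.4% held TATAAA, 32.7% GGGCGG, 33.8% CCAAT, 6.75% TGANTCA and 14.0% AGGTCA. An E-box, CANNTG, was also searched and is not in capitals, since 66.2% of all windows held it. It occurs in the windows of S100a6 and S100a11, and none was found in that of S100a4. The S100a11 window had 60% G and C and 11 CpG dinucleotides, against 57.2% and 2 for S100a4 and 50% and 3 for S100a6. All windows had a median of 52.4% and 6 CpG. A match of this kind is a run of letters and shows no binding.

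S100a10 (p11) differs from the rest of the family in that its protein does not bind calcium. The protein forms a complex with annexin A2 that also holds Ahnak and binds plasminogen at the cell surface. S100a10 measured 199 FPKM in the vehicle library, 153 under ATRA, 35.2 under SAHA and 47.4 under the combination. Both libraries with SAHA were well below both without it, and the combination was slightly above SAHA alone. After rescaling it was slightly below SAHA (-0.24 on the log2 scale), so the order of these last libraries is not settled.

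S100a13 encodes a protein that takes part in the release of Fgf1 and interleukin 1 alpha from cells. It measured 5.46 FPKM in the vehicle library, 5.18 under ATRA, 4.99 under SAHA and 1.70 under the combination. The first 3 libraries were nearly level and the combination alone was low. After rescaling, S100a13 differed from vehicle by -0.21 with ATRA and 0.29 with SAHA. S100a1, best known for its protein's role in calcium cycling in heart muscle, measured 9.64, 13.6, 6.29 and 3.09 FPKM over the libraries so ordered. It was the only one of the 6 counted members that was higher with ATRA than with vehicle. S100a1 and S100a13 lie 0.105 kb apart on opposite strands, with starts that face away from each other and loci that do not overlap. How reads from between these starts were assigned is not known, with a strand setting not given in the sources used here.

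Both remaining members were scarce. S100a3, known from the cuticle of the hair shaft, was at 1.27, 0.904, 0.152 and 0.122 FPKM with vehicle, ATRA, SAHA and the combination. These are about 89, 64, 11 and 9 fragments, and both libraries with SAHA were low. S100a16 was at 0.0328, 0.148, 0.0664 and 0.0337 FPKM, which is about 4, 17, 7 and 4 fragments, too few to order the libraries. Of the 9 other family genes in the table, none reached 1 FPKM in any library, and the highest was S100z at 0.735 FPKM with SAHA. They include S100a8 and S100a9, which are abundant in neutrophils, and S100b, which is abundant in glia. S100a5, which lies between S100a4 and S100a6, was at 0.212, 0.141, 0 and 0.0982 FPKM.

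**Figure D1:**
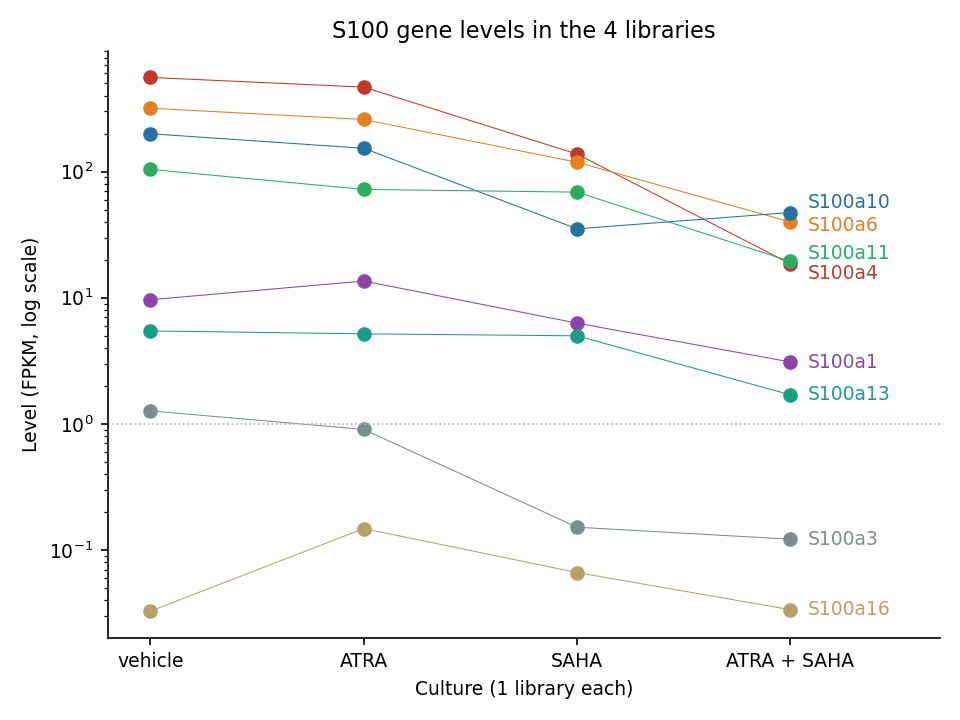
Level of each S100 gene in FPKM (log scale) in the 4 libraries, 1 point per library, with lines joining the values of 1 gene. S100a4 runs from the highest point with vehicle (557 FPKM) to the fourth with the combination (18.6 FPKM), and the dotted line marks 1 FPKM.

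Summed over the 8 genes, the level was 1195 FPKM in the vehicle library, 971 under ATRA, 372 under SAHA and 130.2 under the combination. The vehicle sum was 3.22 times the SAHA sum and 9.18 times the combination sum. As a share of the remaining total defined above, the sum made up 0.874%, 0.630%, 0.376% and 0.0823% of the libraries. The order of the libraries is the same on both scales. S100a4 supplied 46.6% of the sum in the vehicle library, 48.1% under ATRA, 37.1% under SAHA and 14.3% under the combination. The share of S100a10 was 16.7% with vehicle, 15.7% with ATRA and 9.46% with SAHA, and was higher only with the combination, at 36.4%. Its level there was still 4.21-fold below vehicle. S100a6 held a like share throughout, between 26.6% and 31.9%.

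With vehicle and with ATRA, the order of levels was S100a4, S100a6, S100a10, S100a11, S100a1, S100a13, S100a3 and S100a16, from highest to lowest. With SAHA, S100a11 stood above S100a10, and S100a4 was only 1.16 times S100a6. With the combination, S100a10 led, followed by S100a6, S100a11 and S100a4. S100a11 was 1.05 times S100a4 there and S100a10 was 1.19 times S100a6. No spread between replicates exists against which such small gaps could be set.

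**Figure D2:**
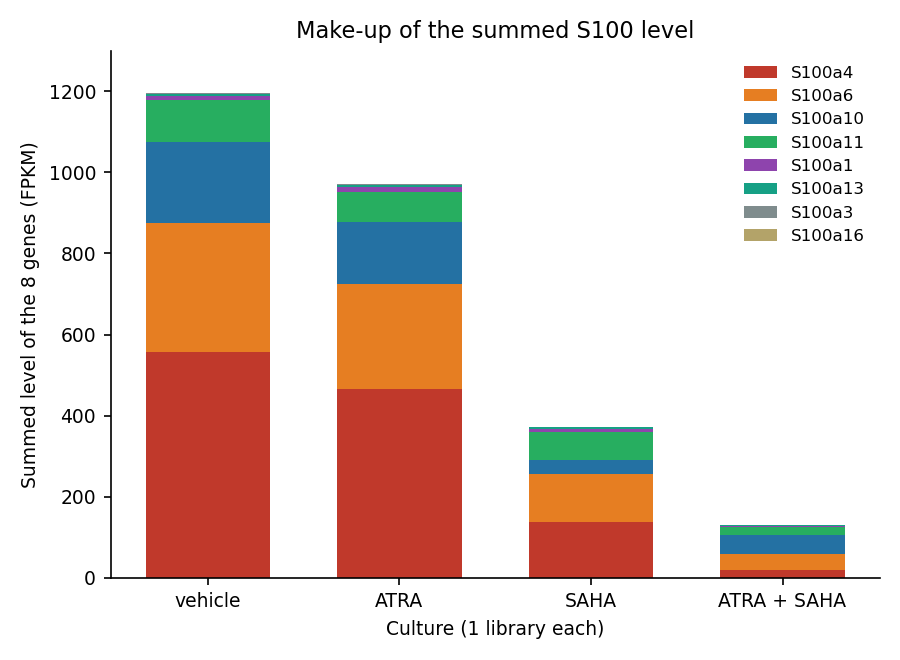
Summed level of the 8 S100 genes in FPKM, stacked by gene, 1 bar per library. The bar drops from 1195 FPKM with vehicle to 130.2 FPKM with the combination, and S100a4 shrinks from 46.6% to 14.3% of it.

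ATRA alone left all 6 counted S100 genes within the 2-fold mark. S100a11 had the lowest difference from vehicle, at -0.52, and S100a1 the highest, at 0.45. None of the 6 was lower by the mark, against 1.20% of all counted genes, and none was higher, against 79 of 8616. With shares this small, a count of none among 6 genes says little. The median difference of the 6 was -0.27, and that of all counted genes was -0.00055. S100a4, at 83.8% of its vehicle level, and S100a6, at 81.5%, were slightly below vehicle.

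SAHA alone put 3 of the 6 past the mark, all lower: S100a10, S100a4 and S100a6. S100a10 was 5.67-fold lower than with vehicle (difference -2.47). S100a4 was 4.05-fold lower (-2.01) and S100a6 was 2.68-fold lower (-1.41). After rescaling, S100a6 was at -0.95 and no longer past the mark, while S100a4 was at -1.54 and S100a10 at -2.01. S100a11 (-0.59) and S100a1 (-0.55) stayed within the mark, and so did S100a13 at -0.11, whose sign turned to 0.29 after rescaling and 0.01 after centring on the median gene. Of all counted genes, 16.0% were lower by the mark with SAHA and 7.88% were higher. Rescaled, 10.4% were lower, and the share of higher genes among those past the mark went from 33.0% to 62.3% (43.2% centred). The median difference of the 6 S100 genes was -1.0, against -0.12 for all counted genes. S100a3, which was not counted, was 8.36-fold lower with SAHA.

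With the combination, all 6 counted S100 genes were lower than with vehicle by the mark, and none was higher. The share of all counted genes was 12.6% lower and 11.1% higher, which became 15.4% lower on rescaling, with higher genes going from 46.7% to 33.4% of those past the mark. S100a4 was at 3.33% of its vehicle level (difference -4.84, or -5.03 rescaled). On the log2(FPKM + 1) scale its difference was the lowest among the 8468 counted genes other than small RNAs. As plain ratios of FPKM, Oaf (21.1 with vehicle, 0.534 with the combination) and Mat2a (33.8 and 0.880) were further below vehicle. S100a6 was 7.96-fold lower (-2.96), S100a11 5.36-fold lower (-2.36) and S100a10 4.21-fold lower (-2.05). S100a13 was 3.21-fold lower (-1.26) and S100a1 3.12-fold lower (-1.38). The median difference of the 6 was -2.21, against 0.04 for all counted genes. Counted over all 8 members, 7 were lower by the mark, since S100a3 was at -1.02. Every comparison with vehicle given here shares the 1 vehicle library.

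The comparison of the combination with SAHA alone shows what accompanied ATRA when SAHA was present. In it 4 of the 6 were lower by the mark: S100a4, S100a11, S100a6 and S100a13. Of all counted genes, 0.929% were lower by the mark, or 4.96% after rescaling, when higher genes went from 76.6% to 22.5% of those past it (61.7% centred). S100a4 was 7.42-fold lower than with SAHA alone (-2.83), S100a11 3.54-fold lower (-1.77), S100a6 2.97-fold lower (-1.55) and S100a13 2.94-fold lower (-1.15). Among the 8468 genes, counted from the lowest difference, S100a4 stood 2nd, S100a11 10th, S100a6 13th and S100a13 39th. S100a1 was at -0.83 within the mark, and at -1.40 past it after rescaling. S100a10 was 1.35-fold higher with the combination than with SAHA (0.42), a direction that turned to -0.24 after rescaling. The median of the 6 was -1.35, against 0.14 for all counted genes. Spp1, the osteopontin gene and 1 of the bile duct markers checked, was also lower by the mark in this comparison, at -1.12. It was at 336, 566, 939 and 433 FPKM with vehicle, ATRA, SAHA and the combination. The other counted bile duct markers, Krt7 (0.23) and Sox9 (-0.04), stayed within the mark between the combination and SAHA. Spp1 departed from additivity, as defined next, by -1.87 (Krt7 0.27, Sox9 -0.80). Its part in the S100 differences was not tested.

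Against ATRA alone, all 6 were lower by the mark with the combination, as were 11.9% of all counted genes. The differences ran from -4.58 for S100a4, a 25.2-fold ratio, to -1.19 for S100a13. The median of the 6 was -1.84, against 0.04 for all counted genes. S100a10 stood at -1.67, so for this gene the libraries with and without SAHA lay apart both with and without ATRA.

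If the compounds acted independently on the log scale, the combination's difference from vehicle would equal the sum of the ATRA and SAHA differences. For S100a4 that sum was -2.26 and the combination was at -4.84, a departure of -2.57. The departures of S100a1 (-1.28), S100a6 (-1.25), S100a11 (-1.25) and S100a13 (-1.09) were also at -1 or below. This made 5 of the 6, against 1.73% of all counted genes, or 5.06% after rescaling, when the share of departures of 1 or more among those past the mark went from 73.1% to 32.9% (57.1% centred). The median departure of the 6 was -1.25, and that of all counted genes was 0.15. S100a10 departed the other way, by 0.80, short of the mark (0.31 rescaled). With a mark of 1.5, S100a4 was the only 1 of the 6 left. Each departure rests on 4 libraries with no replicate and was not tested.

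**Figure D3:**
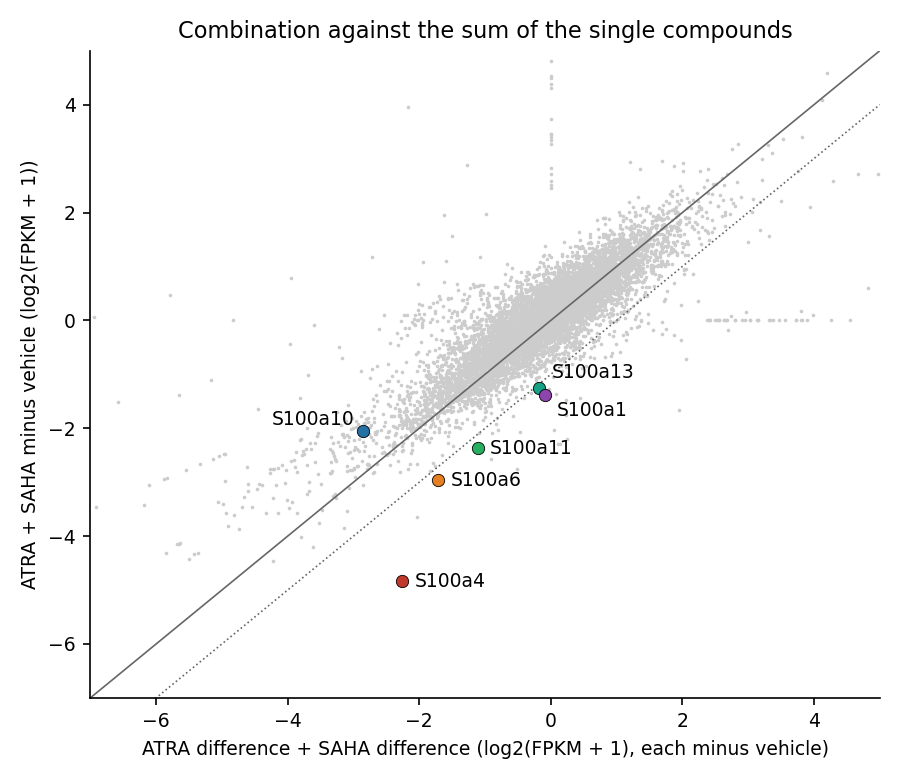
Combination minus vehicle (vertical) against the sum of the ATRA and SAHA differences from vehicle (horizontal), both in log2(FPKM + 1), for the counted genes in grey and the 6 counted S100 genes in colour, with 12 of the 8616 genes outside the axes. The solid line is additivity and the dotted line a departure of -1: S100a4 lies far under it at -2.57, while S100a10 lies above the solid line at 0.80.

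All 8 genes are on chromosome 3 of mm10, in separate groups. S100a1 (90511034 to 90514330, minus strand), S100a13 (90514435 to 90524581), S100a16 (90541223 to 90543151), S100a3 (90600215 to 90602702), S100a4 (90603770 to 90606045) and S100a6 (90612894 to 90614414) lie within 103 kb. S100a11 (93520496 to 93526288) and S100a10 (93555117 to 93564645) lie 2906 kb further on, within 44.2 kb of each other. All but S100a1 are on the plus strand. S100a11 and S100a10 are neighbours: the combination was 3.54-fold below SAHA for the former (-1.77, or -2.43 rescaled) and 1.35-fold above it for the latter (0.42, or -0.24 rescaled). Departures were -1.28 for S100a1 and -1.09 for S100a13 (0.105 kb apart), and -2.57 for S100a4 and -1.25 for S100a6 (6.85 kb apart). S100a11, far from S100a6, was also at -1.25, while S100a10 was at 0.80. With SAHA against vehicle, S100a11 and S100a6 were less alike, at -0.59 and -1.41.

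Within 250 kb of a member the table lists 18 other genes outside the family, of which 6 were counted, all on the S100a1 side of the main group. None of the 6 was past the mark in any of the 5 comparisons, nor after centring or rescaling. Of all 8616 counted genes, 182 were past the mark in either direction with ATRA, 2060 with SAHA and 2043 with the combination, each against vehicle. Between the combination and SAHA 342 were past it, and between the combination and ATRA 1930. The 6 neighbours are too few to set against these shares. Differences of the 6 neighbours ran from -0.62 to 0.22 with SAHA against vehicle. They ran from -0.49 to 0.59 with the combination against vehicle, and from -0.52 to 0.38 with the combination against SAHA. The nearest, Chtop, a gene of mRNA export 1.59 kb from S100a1, was at 5.95, 5.60, 3.52 and 3.94 FPKM with vehicle, ATRA, SAHA and the combination. Chtop was lower in both libraries with SAHA than in the other 2. After rescaling, all 6 counted neighbours were lower with the combination than with SAHA, by differences of -0.95 to -0.17. No neighbour beyond S100a6 or beside S100a11 and S100a10 was counted.

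**Figure D4:**
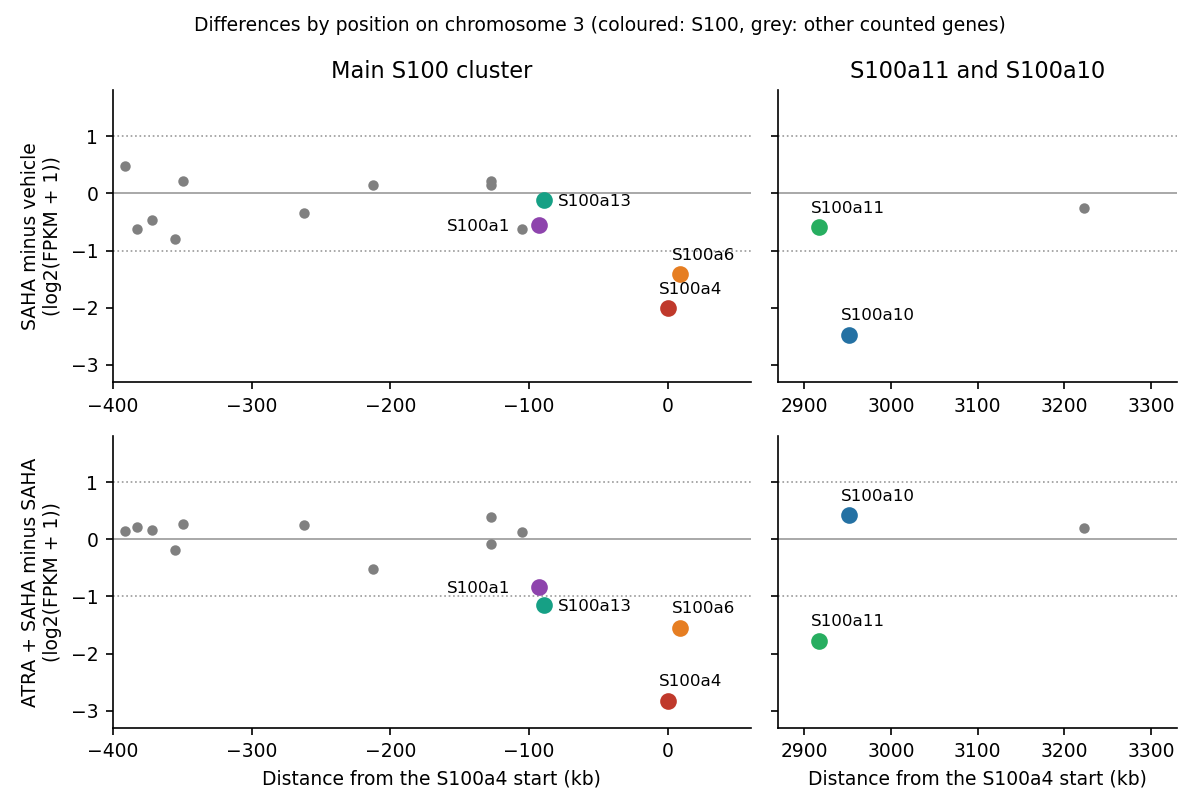
Differences in log2(FPKM + 1) of counted genes on chromosome 3 against their distance from the S100a4 start in kb, with SAHA minus vehicle above and combination minus SAHA below. The S100 genes are coloured and other genes grey, and dotted lines mark 1 and -1: S100a4, S100a6, S100a11 and S100a13 are below -1 in the lower panels, while the grey points stay between the dotted lines.

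Some S100 reads can be shared with other genes. The S100a11 transcript matched Gm12854 at 99.0% identity over 297 bases, Gm7665 at 98.7% over 297 bases, S100a11-ps at 93.7% over 303 bases and Gm29240 at 90.5% over 284 bases. None of these 4 has an entry of its own in the table, so the S100a11 level is uncertain by what they could add or take. S100a10 matched Gm4714 at 82.7% over 294 bases. Gm42674, an annotated gene that overlaps S100a3 and S100a4, is identical to 302 bases of S100a4 and 146 bases of S100a3. S100a3 also overlaps S100a2 in GENCODE, though their loci in the table do not overlap. No member's transcript matched that of another member at an e-value of 1e-10.

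Of the genes for direct binding partners of S100 proteins, 13 of 16 were counted. With the combination against vehicle, 4 were lower by the mark and none higher, with a median of -0.29, beside 12.6% lower and 11.1% higher among all counted genes. Ahnak, the giant scaffold protein gene that partners S100a10, was at 240.5, 127, 82.0 and 36.5 FPKM with vehicle, ATRA, SAHA and the combination (combination minus vehicle -2.69). Ahnak alone of the 13 was also lower by the mark with the combination than with SAHA, at -1.15, beside 0.929% of all counted genes. Anxa1, the annexin bound by S100a11, was at 57.6, 43.9, 8.19 and 7.51 FPKM (-2.78). Tpm1, a tropomyosin gene, was at 119.6, 218, 20.7 and 27.8 FPKM (-2.06). Trp53, which encodes p53, was at 12.5, 11.8, 1.46 and 2.49 FPKM (-1.95). Anxa1, Tpm1 and Trp53 were low in both libraries with SAHA and, unlike S100a4, within the mark between the combination and SAHA.

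The other 9 counted partners stayed within the mark. Anxa2, the partner of S100a10, was at 91.4, 117, 76.2 and 63.6 FPKM (-0.52), and so stayed within the mark that S100a10 passed. Myh9, the myosin heavy chain bound by S100a4, was at 30.1, 30.7, 19.5 and 36.0 FPKM (0.25). Cacybp, the partner of S100a6, was at 21.8, 20.7, 17.1 and 23.9 FPKM (0.13). Myh9 and Cacybp were thus close to vehicle in the library where S100a4 and S100a6 were lowest. Anxa11 (6.09 to 7.17 FPKM over the libraries), Iqgap1 (22.0 to 29.3), Mdm2 (3.65 to 6.19), Ppp5c (2.10 to 3.69), Stub1 (9.98 to 17.9) and S100pbp (1.99 to 2.62) make up the rest, among them the ubiquitin ligase genes Mdm2 and Stub1. Fgf1, Il1a and Syt1, partners in the release route of S100a13, were not counted, with at most 0.0548, 0.0443 and 0.175 FPKM.

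Of 12 annexin genes, which encode calcium-dependent membrane-binding proteins, 9 were counted. With the combination against vehicle 4 were lower and 1 was higher, with a median of -0.63, beside the same 12.6% and 11.1% of all counted genes. With the combination against SAHA none was past the mark, also after rescaling, beside 0.929% of all counted genes lower (4.96% rescaled). Besides Anxa1, Anxa3 was at 30.4, 24.1, 4.06 and 6.92 FPKM (-1.99) and Anxa7 at 11.1, 10.5, 2.67 and 2.66 FPKM (-1.72). Anxa6, at 4.21, 3.94, 13.4 and 15.0 FPKM (1.62), was the higher one. In each of these 4 annexins the libraries divided by SAHA, as they did for S100a10.

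Of 7 genes for surface receptors and co-receptors of S100 proteins, 5 were counted. With the combination against vehicle 1 was lower and none was higher (median -0.12), beside 12.6% and 11.1% of all counted genes. The lower one was Tlr4, a receptor of innate immunity, at 5.09, 5.08, 0.466 and 0.333 FPKM (-2.19). Bsg, which encodes basigin, was at 52.6, 55.6, 91.6 and 96.3 FPKM (0.86, within the mark). The differences of Sdc1 (0.16) and Sdc4 (-0.12) were small. Ager, the gene of the receptor RAGE, was at 0.0716 FPKM or less in every library. Of 6 genes of the plasminogen system, which S100a10 serves at the cell surface, 3 were counted, too few for a median. With the combination against vehicle 2 were lower and 1 was higher, beside the same 12.6% and 11.1%. Plau, the urokinase gene, was at 9.93, 5.79, 1.24 and 1.16 FPKM (-2.34) and its receptor gene Plaur at 14.5, 15.8, 6.62 and 3.73 FPKM (-1.71). Plat, the tissue activator gene, was at 2.06, 0.891, 16.0 and 10.4 FPKM (1.89). Each of the 3 lay on the same side of vehicle in both libraries with SAHA.

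Of 36 genes for other EF-hand proteins 30 were counted. With the combination against vehicle 5 were lower and 4 higher (median 0.01, and 5 and 2 after rescaling). Of all counted genes, 12.6% were lower and 11.1% higher in this comparison. None of the 30 was past the mark between the combination and SAHA, also after rescaling. Of all counted genes, 0.929% were lower there (4.96% rescaled) and 262 of 8616 were higher. Cetn3, a centrin gene, was at 7.92, 6.93, 1.90 and 1.37 FPKM (-1.91) and Cib1, a calcium and integrin binding protein gene, at 1.74, 1.86, 7.53 and 8.97 FPKM (1.86). The calpain genes Capn2 and Capn1 were at -1.64 and -1.58. Of 18 genes for calcium channels, pumps and stores, 15 were counted. With the combination against vehicle none was lower and 2 were higher, beside the same 12.6% and 11.1% (median -0.08, and 1 and 1 after rescaling). Calr, the calreticulin gene, was at 27.3, 37.4, 101 and 74.5 FPKM (1.41). Stim2, an endoplasmic reticulum calcium sensor, was at -0.94 against vehicle and, at -1.51, was the only one of the 15 lower by the mark with the combination than with SAHA (3 of the 15 after rescaling). Atp2a2, the reticulum calcium pump gene, was at -0.53 and Tmbim6, a reticulum membrane protein gene, at 0.40. Of 15 genes of the epidermal differentiation complex, which lies between the S100 groups, none was counted, and Sprr1a was highest at 0.643 FPKM.

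**Figure D5:**
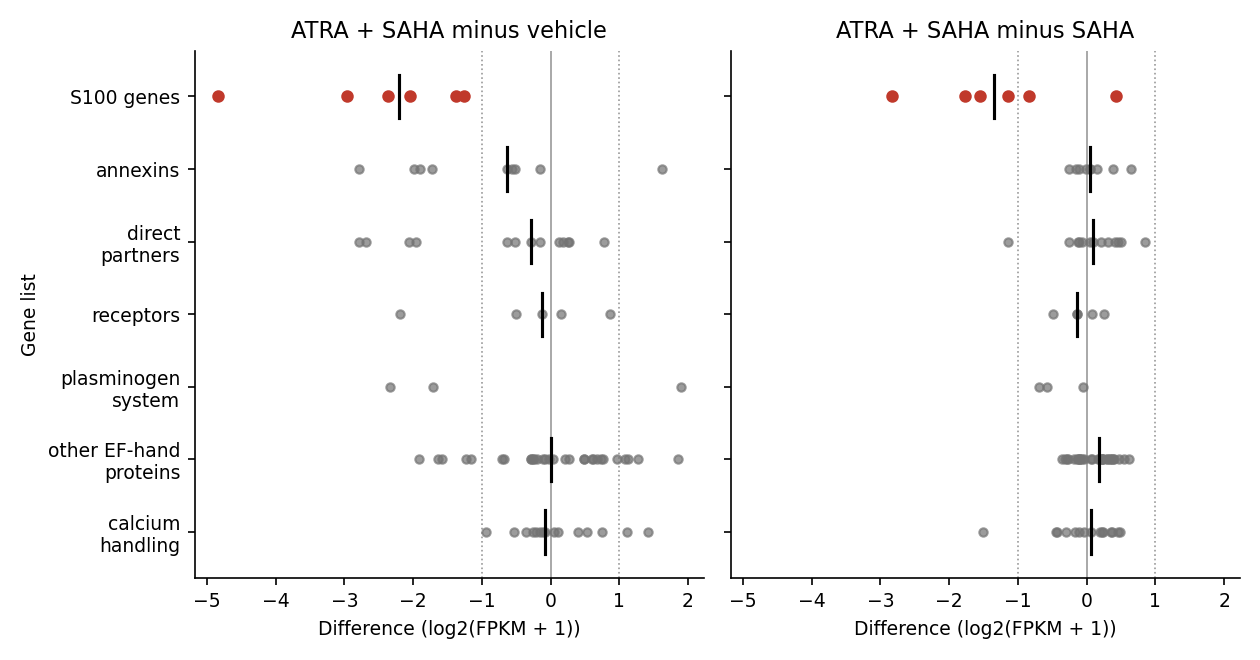
Differences in log2(FPKM + 1) of the counted genes of each list, 1 point per gene, with a bar at the median of lists of 5 or more, for the combination minus vehicle (left) and the combination minus SAHA (right). The 6 S100 genes have medians of -2.21 and -1.35, and the medians of the other lists lie between -0.63 and 0.01 on the left and between -0.14 and 0.18 on the right (after rescaling, -1.95 for the S100 genes and between -0.60 and -0.42 for those lists).

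Markers of other cell types were checked since S100 genes also mark them. For fibroblasts, 2 of 8 markers were counted, Vim at 562, 432, 319 and 362 FPKM and Acta2 at 15.9, 17.3, 7.14 and 8.86 FPKM in the usual order. Col1a1, Col1a2, Col3a1 and Thy1 were at or near 0 in every library, at most 0.0465 FPKM. The summed level of the 8 was 580, 451, 327 and 371 FPKM, lower in both libraries with SAHA than in the other 2. Between the combination and SAHA, Vim was at 0.18 and Acta2 at 0.28, which turned to -0.50 and -0.33 after rescaling. Pdgfrb, at 1.55, 1.07, 0.104 and 0.107 FPKM, followed SAHA as S100a3 did. Its part and that of Vim in the S100 differences was not tested. No hepatocyte marker was counted (0 of 7, summed level 0.174 to 0.438 FPKM), nor any of neutrophils (0 of 6, 0.136 to 0.291), endothelium (0 of 5, 0.0695 to 0.158) or lymphocytes (0 of 5, 0.0151 to 0.0885). Of bile duct markers 3 of 5 were counted (Krt7, Sox9 and Spp1, summed level of the list 340 to 942 FPKM, nearly all Spp1). Of macrophage markers 1 of 5 was counted (Cd68, with a list sum of 1.95 to 5.32 FPKM), and of glia and melanocytes 1 of 6 (Gfap, with a list sum of 2.79 to 4.19 FPKM). Ptprc, Csf1r and Itgam were at or near 0.

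Genes with the most similar pattern were found among 2893 genes averaging 5 FPKM or more, by the root mean square difference over the 3 log2 differences from vehicle. S100a10 had the closest ones, Adh7 (0.0895), Anxa3 (0.107) and Rbpj (0.116). S100a13 was nearest to Slc1a5 (0.144), Hspb1 (0.163) and Zfp207 (0.170), and S100a1 to Anapc13 (0.153), Hnrnpm (0.192) and Krt18 (0.217). S100a6 was nearest to Srsf2 (0.224), Srsf1 (0.372) and Ahnak (0.397), the S100a10 partner named above. S100a11 was nearest to Sfpq (0.252), Srsf1 (0.289) and Bloc1s1 (0.379). For S100a4 no gene came closer than 0.684: Oaf, at 21.1, 14.1, 2.66 and 0.534 FPKM, was followed by Mat2a (0.747) and Cldn6 (0.813). The likeness covers 3 differences that share the vehicle library and carries no test.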

How the data were processed

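Per the labels' protocols, ribosomal RNA was removed from total RNA before sequencing. The submitters' processing notes name Trimmomatic 0.32, Cuffdiff and mm10, with aligner, annotation, Cuffdiff version and strand setting not given in the sources used here. Per the file headers, each library has 1 column of FPKM made by the authors, and read counts were not used. Members and gene lists were chosen with earlier results of these data known. The 7 lists of related genes and 8 of cell type markers hold 160 different genes, after 2 that are not reported here were left out once values were known, and up to 4 members per list with the largest difference and at least 5 FPKM were named, plus all direct partners. Values were taken as log2(FPKM + 1) over genes averaging 1 FPKM or more, with a mark of 1 and no test, in Python 3.11.15 with pandas 2.3.3, numpy 2.4.6 and matplotlib 3.10.9. The counting steps were tested on simulated data. Depth was estimated from the smallest steps of FPKM times length, and the second step lay at 1.92 to 2.04 times the first. Exons and similar transcripts come from GENCODE M21 with BLAST+ 2.17.0, and 99.0% of 21698 loci overlapped the table's. Promoters are RefSeq's, found for 7 of 8 members, and windows with over 30 exon bases are not printed. Alternatives were a pseudocount of 0.1, no filter, a mean of 5 FPKM, a mark of 1.5, centring on the median gene and rescaling.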

Additional observations from a re-analysis of the deposited data

Results flagged for a closer look

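For S100a1, the library with ATRA lay above vehicle in the absence of SAHA (0.45 on the log2(FPKM + 1) scale) and below SAHA alone in its presence (-0.83), a gap of -1.28. For S100a10, ATRA lay below vehicle in the absence of SAHA (-0.38) and above SAHA alone in its presence (0.42), a gap of 0.80. After rescaling, the latter difference of S100a10 was -0.24, so the opposite directions do not hold there. Both genes were singled out because the differences with ATRA pointed in opposite directions without and with SAHA, each from 1 library per group, and the difference was not tested.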

How the results depend on the processing

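The number of S100 genes with a departure from additivity of -1 or less was 5 in the report and 1, S100a4, with a mark of 1.5. The other counts of S100 genes stayed within 1.5 times the reported ones under every alternative run. Of 48 single differences and departures of the 8 genes, 48 kept their side of the mark when centred, 45 with a pseudocount of 0.1 and 46 when rescaled. With the smaller pseudocount, S100a3 passed the mark with SAHA (-2.44) and between the combination and ATRA (-2.18), and S100a16 in the departure (-1.22), both from few fragments. No value past the mark changed sign. Among values within it, those of S100a10 and S100a13 named in the report and that of S100a16 with the combination against vehicle did. Leaving out a replicate was not possible with 1 library per group, and no paired analysis was possible because each group has 1 library. Few fragments limit S100a3 and S100a16, and the absence of replicates limits all values.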
